A study of Mus musculus with 12 samples.

Results

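Myelin and oligodendrocyte genes were followed as a group of 9, chosen by symbol from a table of raw read counts with 25965 entries: Mbp, Mobp, Mog, Mag, Cnp, Mal, Trf, Sox10 and Ugt8a. All 9 had an entry and all 9 passed the filter on low counts, which kept 16338 genes for testing. The counts came from RNA sequencing of lumbar lower motor neurons collected by laser capture from 5 month old mice on a C57BL/6 background. Their genotypes were Q331K/Q331K (homozygous), Q331K/+ (heterozygous) and +/+ (wild type), where Q331K is an ALS-linked substitution in TDP-43, an RNA-binding protein, introduced as a knock-in. Each genotype had 4 libraries, 12 in all. No treatment was given in the labels for any group, and a knock-in allele is carried by every cell of the animal, oligodendrocytes and neurons alike. Whether a library stands for 1 animal, whether animals were pooled and from how many founders the line descends are not stated, and the p-values below measure the spread between libraries only.

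Oligodendrocytes wrap axons of the central nervous system in myelin, a stack of membrane rich in lipid that is held together by a small set of very abundant proteins. In the ventral horn they also lie directly against the cell bodies of motor neurons, where they take part in metabolic support and in iron supply. Their mRNAs can therefore be cut out together with a motor neuron, and Mbp and Mobp mRNA is in addition carried out into myelin processes. In RNA from a whole capture, fewer oligodendrocyte cells or processes and less RNA per cell cannot be told apart.

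The members have several roles. Mbp (myelin basic protein) and Mobp (myelin-associated oligodendrocyte basic protein) bind the inner faces of the membrane in compact myelin. Mog sits on the outermost surface of the sheath and Mag on the innermost, facing the axon. Cnp, a phosphodiesterase of cyclic nucleotides, keeps the cytoplasmic channels of myelin open. Mal is a proteolipid of raft membranes that sorts myelin proteins. Ugt8a is the enzyme that makes galactosylceramide, a main lipid of myelin. Trf is transferrin, the iron carrier that oligodendrocytes make themselves. Sox10 is the transcription factor of the oligodendrocyte lineage that binds the control regions of many myelin genes, and it works there together with Myrf.

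Because Sox10 is itself among the 9 genes, the promoters of the others were read for the letters that SOX proteins and Myrf bind. Promoter sequence from 250 bases before to 50 bases after the start was taken from RefSeq (GRCm38.p6), and 6 of the 9 genes had an entry, with 8 promoters between them. The SOX letters searched were ACAAAG and ACAATG and the Myrf letters CTGGCAC and CTGGTAC, each on both strands and with no overlap between the kinds. The 3 promoters that follow are those with a SOX match, 1 for each gene, printed 5′ to 3′ along the gene with the matches in capitals. They are Mobp (chr9:120149492-120149791, + strand), Mag (chr7:30914814-30915113, − strand, 1 of its 3 listed starts) and Cnp (chr11:100574689-100574988, + strand).
Mobp: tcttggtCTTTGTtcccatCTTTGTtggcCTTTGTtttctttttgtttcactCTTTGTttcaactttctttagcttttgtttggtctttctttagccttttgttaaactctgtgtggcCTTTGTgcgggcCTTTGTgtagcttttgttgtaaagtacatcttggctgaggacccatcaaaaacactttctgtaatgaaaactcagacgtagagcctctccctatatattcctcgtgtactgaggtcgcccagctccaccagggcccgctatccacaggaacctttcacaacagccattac
Mag: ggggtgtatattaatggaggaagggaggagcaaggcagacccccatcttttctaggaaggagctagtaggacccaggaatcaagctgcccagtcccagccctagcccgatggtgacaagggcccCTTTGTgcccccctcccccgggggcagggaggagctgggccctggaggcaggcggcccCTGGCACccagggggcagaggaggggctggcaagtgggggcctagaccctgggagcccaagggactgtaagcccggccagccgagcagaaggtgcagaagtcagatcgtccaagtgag
Cnp: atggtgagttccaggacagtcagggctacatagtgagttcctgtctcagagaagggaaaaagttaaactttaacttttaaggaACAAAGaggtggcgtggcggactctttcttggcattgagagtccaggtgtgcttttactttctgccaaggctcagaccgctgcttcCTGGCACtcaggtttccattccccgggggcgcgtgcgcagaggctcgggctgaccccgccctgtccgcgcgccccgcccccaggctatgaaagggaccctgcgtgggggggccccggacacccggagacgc

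The Mobp promoter held 6 SOX matches, all as CTTTGT, the reverse complement of ACAAAG, in a stretch rich in CTTT and TTGT. They began 243, 231, 221, 198, 132 and 120 bases before the start. Of 32851 mouse promoters of the same length, 1 had as many as 6, which was Mobp itself. The Mag promoter printed held 1 SOX match 126 bases before the start and 1 Myrf match 68 bases before it. The same matches lay 67 and 9 bases before the second listed start of Mag, and the promoter of the third (chr7:30914272-30914571), which spans the end of the interval counted for Mag, held neither. The Cnp promoter held 1 SOX match 167 bases before the start and 1 Myrf match 81 bases before it. One or more SOX matches occurred in 28.6% of all promoters, so a single SOX match is common, and 1 or more Myrf matches in 7.1%. Of the 6 genes with an entry, 3 held a SOX match and 3 a Myrf match in at least 1 promoter. These counts were not tested. The Mog promoter held 1 Myrf match and no SOX match, and those of Mal and Ugt8a held neither. A match of letters is a description of the sequence and not a measured binding site.

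Library depth was 60886825 to 83504446 counted reads, with scaling factors of 0.940 to 1.03. Levels are given as CPM, read counts scaled to a common library size. The motor neuron genes Nefh and Ache were high in every library, at 3532 to 6947 CPM for Nefh and 593 to 968 CPM for Ache. Homozygous replicate 1 and heterozygous replicate 1 stood apart from the other 10 libraries. Slc17a6, the glutamate transporter of excitatory interneurons, was at 4.53 CPM in homozygous replicate 1 and 0.563 CPM in heterozygous replicate 1, against 160 to 323 CPM in the other 10. Summed motor neuron markers were 12080 and 12160 CPM in these libraries, against 4938 to 8873 CPM in the others. Nefh made up most of this sum, at an average of 4773 CPM over the 12 libraries against 7446 CPM for the sum. Wild-type replicate 3 stood apart in another way, described with the members.

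The 9 genes together made up 0.0834% to 0.259% of the reads of a library. Their summed level was 1349, 1323, 1217 and 1339 CPM in the homozygous libraries, 987, 858, 944 and 953 CPM in the heterozygous libraries and 844, 1085, 2558 and 1437 CPM in the wild-type libraries. Every homozygous sum was above every heterozygous sum. The wild-type libraries held both the lowest and the highest sum of all 12 and overlapped with both mutant genotypes. As mean ± SD (n = 4 each), the sums were 1307 ± 60.8 CPM in homozygotes, 935 ± 55.1 CPM in heterozygotes and 1481 ± 758 CPM in wild type. Without wild-type replicate 3 the wild-type sums were 1122 ± 298 CPM (n = 3), below the homozygous mean. Mbp supplied 37.5% to 56.5% of these reads and Trf 11.5% to 24.7%.

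**Figure D1:**
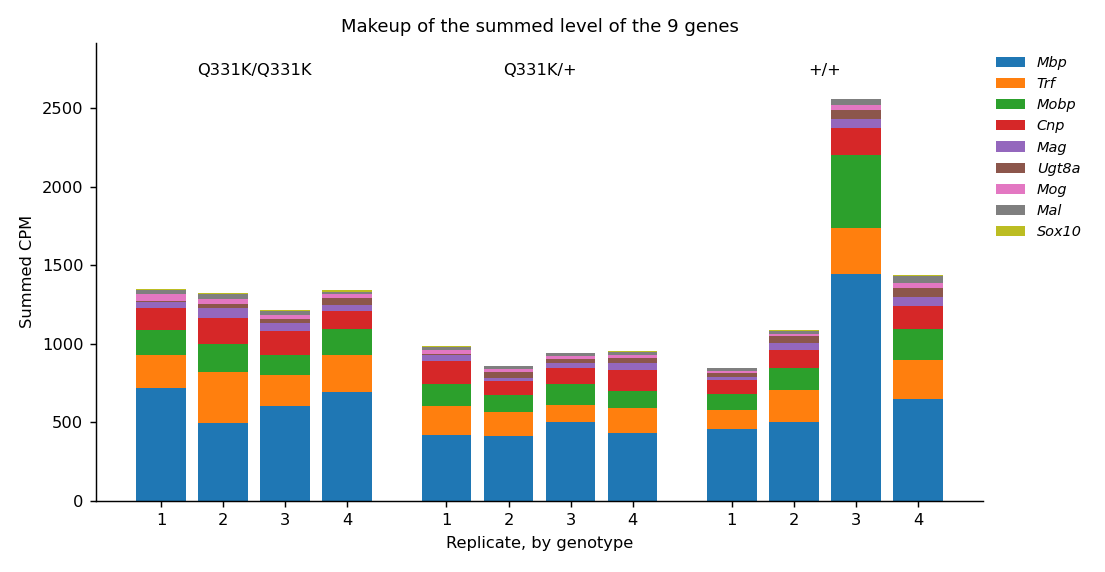
Summed level of the 9 genes in each library in CPM (vertical axis), with 1 bar for each replicate and colours for the genes, in the order homozygous, heterozygous, wild type. The homozygous bars reach 1217 to 1349 CPM and the heterozygous bars 858 to 987 CPM, while the wild-type bars range from 844 to 2558 CPM.

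Levels can be compared between genes only per length, here as CPM per kilobase of exon. The length counts every base in any annotated exon of a gene, so genes whose main transcripts use few of these bases come out too low. Transcript lengths were not used. In plain CPM over the 12 libraries, Mobp (167.7) lay above Cnp (131.5). Trf shares 63.5% of its exon bases with Gm20425, which leaves its place uncertain. Over all 12 libraries the order was Mbp (72.0 ± 33.5), Trf (61.4 ± 19.7), Cnp (36.1 ± 7.72), Mobp (24.5 ± 14.3), Mog (14.7 ± 4.78), Mag (10.0 ± 3.52), Mal (8.71 ± 3.32), Ugt8a (7.28 ± 3.48) and Sox10 (1.62 ± 0.727), all in CPM per kilobase (SD, n = 12). Mbp thus came first and the transcription factor last. In wild type alone Mal (10.4) lay just above Mag (10.2). Among the wild-type libraries the ranges of neighbours in the order overlapped at every step but the last. The lowest wild-type value of Ugt8a, 5.47 CPM per kilobase, was above the highest of Sox10, 1.62 CPM per kilobase.

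The genes of compact myelin proteins are given first. Mbp (chromosome 18, 82475146 to 82585637, GRCm38, protein coding) had 719, 495, 603 and 690 CPM in the homozygous libraries, 421, 412, 502 and 430 CPM in the heterozygous libraries and 455, 499, 1445 and 649 CPM in the wild-type libraries. The single wild-type replicate 3 was far above the other 11, and all 3 genotypes overlapped. The interval counted for Mbp also covers the longer golli transcripts of this locus, which neurons can make, and reads of these were not separated.

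Relative to wild type, the fitted log2 difference of Mbp was -0.28 (SE 0.30) in homozygotes and -0.79 (SE 0.30, 95% interval -1.44 to -0.14) in heterozygotes. The unadjusted p of the second was 0.0218 and its adjusted p 0.999 (edgeR quasi-likelihood test, Benjamini-Hochberg over all genes). Without wild-type replicate 3 it was -0.27, with an unadjusted p of 0.101, and the homozygous difference turned to 0.24.

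Mobp (chromosome 9, 120149742 to 120181484) repeated this shape. It had 158, 174, 126 and 160 CPM in the homozygous libraries, 141, 109, 130 and 107 CPM in the heterozygous libraries and 102, 140, 465 and 199 CPM in the wild-type libraries. Wild type held both the lowest and the highest library. The fitted log2 difference was -0.55 (SE 0.36) in homozygotes and -0.89 (SE 0.36, unadjusted p = 0.0288, adjusted p = 0.999 by edgeR) in heterozygotes, each relative to wild type. Without wild-type replicate 3 these were 0.08 and -0.26. In that library Mobp supplied 18.2% of the reads of the 9 genes, against 10.3% to 14.3% in the other libraries.

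Mog and Mag encode the surface and axon-facing proteins. Mog (chromosome 17, 37010746 to 37023398) had 39.6, 32.0, 27.4 and 24.9 CPM in the homozygous libraries, 24.3, 19.2, 16.6 and 19.5 CPM in the heterozygous libraries and 13.2, 17.3, 33.7 and 32.2 CPM in the wild-type libraries. All homozygous libraries lay above all heterozygous ones, by a narrow gap, and wild type overlapped with both. The log2 difference between homozygotes and heterozygotes was 0.64 (SE 0.28, 95% interval 0.03 to 1.25), with an unadjusted p of 0.0422 and an adjusted p of 1.00 (edgeR).

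Mag (chromosome 7, 30899183 to 30914327) had 40.4, 60.7, 52.8 and 39.6 CPM in the homozygous libraries, 39.1, 15.3, 33.9 and 41.0 CPM in the heterozygous libraries and 15.5, 41.7, 55.4 and 53.6 CPM in the wild-type libraries. Heterozygous replicate 2 and wild-type replicate 1 were far below the rest, and the genotypes overlapped. Relative to wild type, its log2 difference was 0.22 (SE 0.37) in homozygotes and -0.36 (SE 0.37) in heterozygotes. The homozygous difference was -0.046 without wild-type replicate 1. The heterozygous difference was -0.12 without heterozygous replicate 2 and -0.63 without wild-type replicate 1.

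Cnp and Mal, of non-compact myelin and of membrane sorting, had overlapping genotypes. Cnp (chromosome 11, 100574904 to 100591729) had 139, 169, 151 and 118 CPM in the homozygous libraries, 145, 88.4, 103 and 134 CPM in the heterozygous libraries and 93.6, 115, 173 and 150 CPM in the wild-type libraries. It was the steadiest of the 9, with a pooled within-genotype SD of 0.32 on the log2 scale. Its 95% interval for homozygotes against wild type ran from -0.32 to 0.56, the narrowest of the group. A stretch of 154 exon bases, 4.2% of the exons of Cnp, is shared with Dnajc7 on the opposite strand, and the library kits keep no strand.

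Mal (chromosome 2, 127633226 to 127656695) had 26.1, 29.6, 27.7 and 17.8 CPM in the homozygous libraries, 19.5, 14.8, 19.5 and 19.9 CPM in the heterozygous libraries and 17.5, 16.5, 36.0 and 45.5 CPM in the wild-type libraries. Wild type fell into a low pair and a high pair, with the mutant libraries between or beside them. The log2 difference of heterozygotes from wild type was -0.65 (SE 0.30, unadjusted p = 0.0548, adjusted p = 0.999 by edgeR). Without wild-type replicate 4 it was -0.33.

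Trf (chromosome 9, 103204001 to 103230444), the iron carrier, had 210, 326, 200 and 241 CPM in the homozygous libraries, 179, 155, 108 and 162 CPM in the heterozygous libraries and 121, 208, 293 and 245 CPM in the wild-type libraries. Every homozygous library was above every heterozygous one, and wild type overlapped with both. The log2 difference between homozygotes and heterozygotes was 0.69 (SE 0.25, 95% interval 0.15 to 1.24), a 1.62-fold ratio, with an unadjusted p of 0.0162 and an adjusted p of 1.00 (edgeR). The value is uncertain in what it counts, since 63.5% of the exon bases of Trf lie also in Gm20425, an annotated gene on the same strand with 1.03 to 1.34 times as many counts in each library.

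Sox10 (chromosome 15, 79154913 to 79164490), the lineage transcription factor, was the lowest of the group. It had 8.21, 5.59, 6.51 and 6.63 CPM in the homozygous libraries, 7.66, 1.30, 4.11 and 5.81 CPM in the heterozygous libraries and 1.81, 4.08, 2.70 and 4.96 CPM in the wild-type libraries. All homozygous libraries were above all wild-type ones, and the heterozygous libraries spanned almost the whole range. These levels rest on 388 to 566 reads in homozygotes, 103 to 544 in heterozygotes and 137 to 417 in wild type. Homozygotes minus wild type gave a log2 difference of 0.99 for Sox10 (SE 0.47, 95% interval -0.03 to 2.01), a 1.99-fold ratio. It did not pass the test, with an unadjusted p of 0.0557 and an adjusted p of 0.986 (edgeR). Without homozygous replicate 1 and heterozygous replicate 1, the 2 libraries low in interneuron genes, it was 0.88.

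Ugt8a (chromosome 3, 125865359 to 125938550), the galactolipid enzyme, had the largest SD of log2 CPM pooled over the genotypes. It had 8.19, 30.2, 23.1 and 41.3 CPM in the homozygous libraries, 9.62, 42.5, 26.5 and 33.2 CPM in the heterozygous libraries and 24.8, 44.6, 54.7 and 57.4 CPM in the wild-type libraries. Replicate 1 was the lowest library in every genotype, and the genotypes overlapped. The log2 difference from wild type was -0.82 (SE 0.49) in homozygotes and -0.70 (SE 0.48) in heterozygotes, with unadjusted p of 0.116 and 0.173 and adjusted p of 0.986 and 0.999 (edgeR). Without the 2 mutant libraries low in interneuron genes, these were -0.52 and -0.41.

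**Figure D2:**
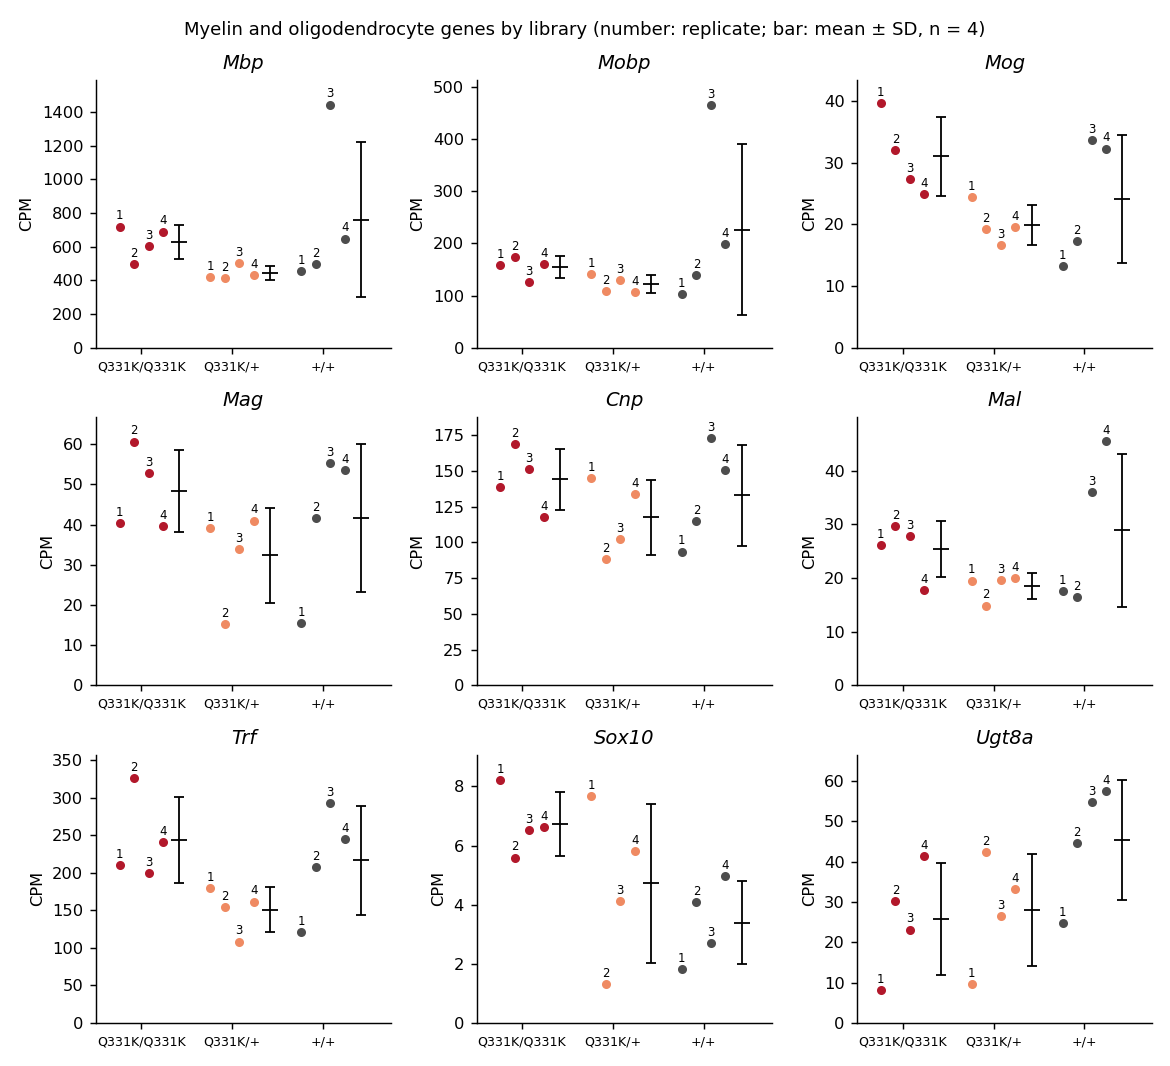
Level of each of the 9 genes in CPM (vertical axes, each from 0) in every library, numbered by replicate, with homozygous, heterozygous and wild-type libraries from left to right and bars for the mean ± SD (n = 4). Wild-type replicate 3 stands above all others for Mbp at 1445 CPM and Mobp at 465 CPM, and replicate 1 of both mutant genotypes is at 8.19 and 9.62 CPM for Ugt8a.

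Set against all genes, the 9 gave these counts. Between homozygotes and wild type, 0 of the 9 were called at an adjusted p under 0.05, where 0.00612% of all genes tested were called (1 gene). At an unadjusted p under 0.05 there were 0 of 9 members, against 4.82% of all genes. Fitted differences were positive for 5 of the 9, against 49.4% of all genes, and negative for 4, against 50.6%, with a median of 0.12 log2 for the 9 and -0.0032 for all genes. Sox10 was the 1 member of 9 whose libraries lay apart upward, which 1.29% of all genes did, and none lay apart downward, which 2.12% did. The members thus scattered on both sides of 0. Without wild-type replicate 1 the median was -0.05, and without wild-type replicate 3 it was 0.27.

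Between heterozygotes and wild type, 0 of the 9 were called, where 0% of all genes were called. Mbp and Mobp, 2 of the 9, had an unadjusted p under 0.05, against 4.1% of all genes. Differences were negative for 8 of the 9, all but Sox10, against 50.3% of all genes, and positive for 1, against 49.7%, with a median of -0.52 log2 for the 9 and -0.0013 for all genes. No member had heterozygous and wild-type libraries apart, which 1.48% of all genes did upward and 1.76% downward. The median depended on which wild-type libraries were kept. It was -0.26 without wild-type replicate 3, -0.33 without wild-type replicate 4 and -0.72 without wild-type replicate 1. By limma-voom it was -0.64.

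Between homozygotes and heterozygotes, again 0 of the 9 were called, where 0% of all genes were called. Mog and Trf, 2 of the 9, had an unadjusted p under 0.05, against 2.97% of all genes. The same 2 lay apart upward, which 1.03% of all genes did, and none lay apart downward, which 0.998% did. Differences were positive for 8 of the 9, all but Ugt8a, against 49.8% of all genes, and negative for 1, against 50.2%, with a median of 0.51 log2 for the 9 and -0.00050 for all genes. This comparison does not use the wild-type libraries for its means, and its median was 0.35 to 0.52 when any 1 library was left out. Its p-values do use them, through the spread estimated from all 12 libraries. With only the 8 libraries compared, edgeR gave an unadjusted p of 0.0030 for Mbp, 0.0056 for Trf and 0.0081 for Mog. It was 0.029 for Mobp, 0.043 for Mal and above 0.05 for the other members, and every adjusted p of a member was 0.9999. Over all genes, 342 then had an unadjusted p under 0.05, against 486 with 12 libraries. The comparisons of homozygotes and of heterozygotes with wild type share the same 4 wild-type libraries.

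A single test over all 3 genotypes gave an unadjusted p of 0.0440 for Trf, 0.0638 for Mbp and 0.0754 for Mobp, and up to 0.377 for the others. All adjusted p were 1.00 (edgeR), and 3.59% of all genes had an unadjusted p under 0.05 in that test while 0% were called. DESeq2 called 13 genes between homozygotes and wild type, 9 between heterozygotes and wild type and 3 between homozygotes and heterozygotes, with no member among them.

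**Figure D3:**
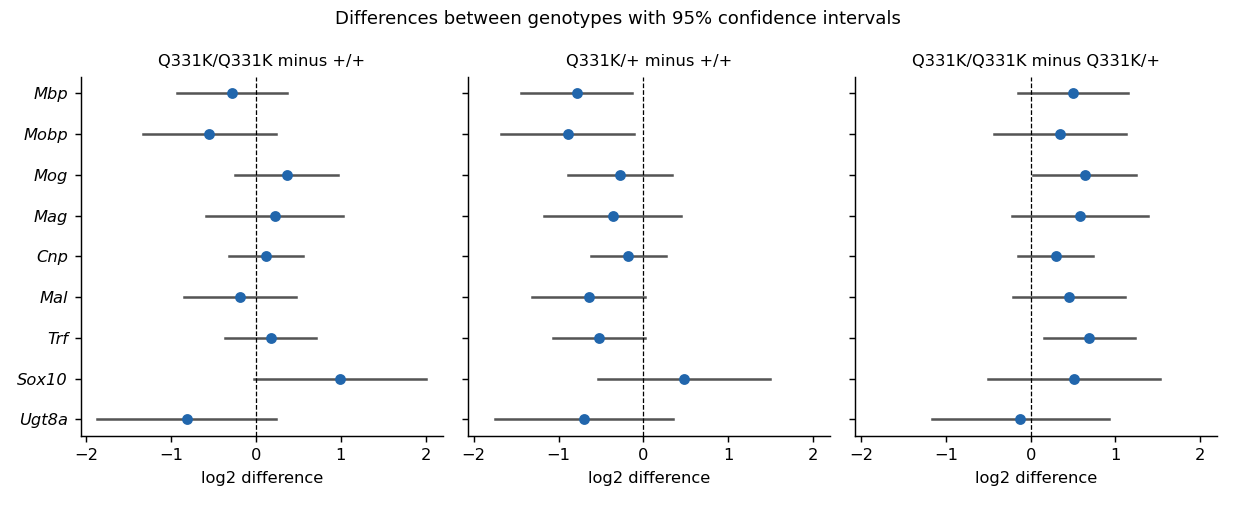
Fitted log2 differences of the 9 genes (points) with 95% confidence intervals (lines) for homozygotes minus wild type, heterozygotes minus wild type and homozygotes minus heterozygotes. Intervals leave out 0 for Mbp and Mobp in the middle panel and for Mog and Trf in the right panel, before any adjustment for the number of genes.

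The members differed widely in their spread. The pooled within-genotype SD of log2 CPM was 0.32 for Cnp, 0.41 for Trf, 0.44 for Mog, 0.47 for Mbp, 0.48 for Mal, 0.57 for Mobp, 0.65 for Mag, 0.75 for Sox10 and 0.86 for Ugt8a, against a median of 0.38 over all genes tested. For Mbp the SD was 0.24 among homozygous, 0.13 among heterozygous and 0.76 among wild-type libraries, and for Mobp it was 0.20, 0.20 and 0.94 in the same order. The wild-type SD rested on replicate 3, without which it was 0.27 for Mbp and 0.48 for Mobp. For Ugt8a the SD was 1.01 among homozygous, 0.94 among heterozygous and 0.56 among wild-type libraries. It rested on replicate 1 of both mutant genotypes, without which it was 0.42 among homozygous and 0.34 among heterozygous libraries. Replicate 1 was the lowest wild-type library too, and the wild-type SD was not recomputed without it, so these SDs cannot be ranked against it. The largest SD of any member in 1 genotype was that of Sox10 among heterozygous libraries, at 1.11.

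Most of the group moved together from library to library. The Pearson correlation of each gene with the mean of the other 8, on standardized log2 CPM over the 12 libraries, was 0.87 for Cnp, 0.84 for Mag, 0.82 for Trf, 0.81 for Mog, 0.80 for Mal, 0.77 for Mobp and 0.68 for Mbp. It was 0.34 for Sox10 and 0.05 for Ugt8a. These are descriptions, since the genes share libraries, depth and scaling. Of the 36 pairs, Mbp with Mobp had the highest r, 0.90, and Sox10 with Ugt8a the lowest, -0.48, around a median of 0.61. Wild-type replicate 3 ranked highest or second highest for 8 of the 9 genes but was the third lowest for Sox10. Without this library r was 0.67 for Sox10, -0.14 for Ugt8a, 0.60 for Mbp and 0.75 to 0.87 for the other members.

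Sox10 and Ugt8a were also the 2 members set apart by homozygous replicate 1 and heterozygous replicate 1. In these libraries Sox10, at 8.21 and 7.66 CPM, was above the 1.30 to 6.63 CPM of the other 10. Ugt8a, at 8.19 and 9.62 CPM, was below the 23.1 to 57.4 CPM of the others. The remaining 7 members had at least 1 of these libraries inside the range of the other 10. Without both, r of Ugt8a with the other members was 0.42. These same 2 libraries had the low interneuron and high motor neuron levels, and the part of these levels in the Ugt8a and Sox10 values was not tested. Wild-type replicate 1 had the highest Nefh of the other 10, at 5564 CPM. Its Sox10, at 1.81 CPM, was the second lowest of all 12 libraries, and its Ugt8a was at 24.8 CPM.

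**Figure D4:**
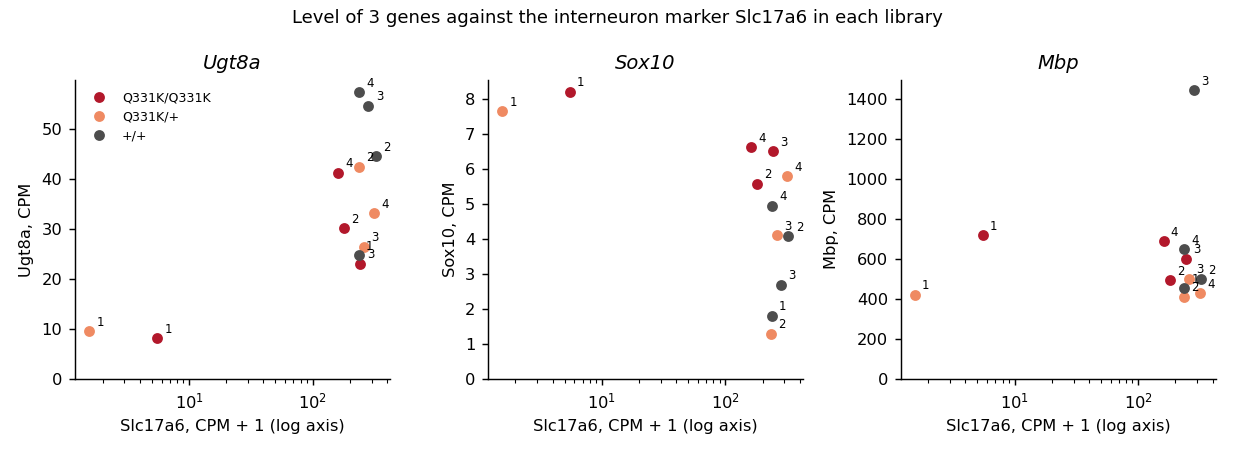
Levels of Ugt8a, Sox10 and Mbp in CPM (vertical axes) against the interneuron gene Slc17a6 in CPM + 1 (horizontal axes, log scale) in the 12 libraries, coloured by genotype and numbered by replicate. The 2 libraries low in Slc17a6, at 4.53 and 0.563 CPM, are lowest for Ugt8a and highest for Sox10 and lie within the others for Mbp.

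Among 10795 genes that averaged 5 CPM or more, the 10 whose log2 CPM was most like the mean of the members over the 12 libraries included 9 reported here, Apod (r = 0.93), Kcnj10 (0.92), Stmn4 (0.91), Cmtm5 (0.91), Tmem9b (0.89), S100a1 (0.88), Gja1 (0.87), Efnb3 (0.87) and Setd6 (0.86). Apod encodes a lipid carrier, Kcnj10 a potassium channel of glia and Gja1 a connexin of astrocytes. Without wild-type replicate 3 these r were 0.82 to 0.93, and without the 2 libraries low in Slc17a6 they were 0.87 to 0.94.

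**Figure D5:**
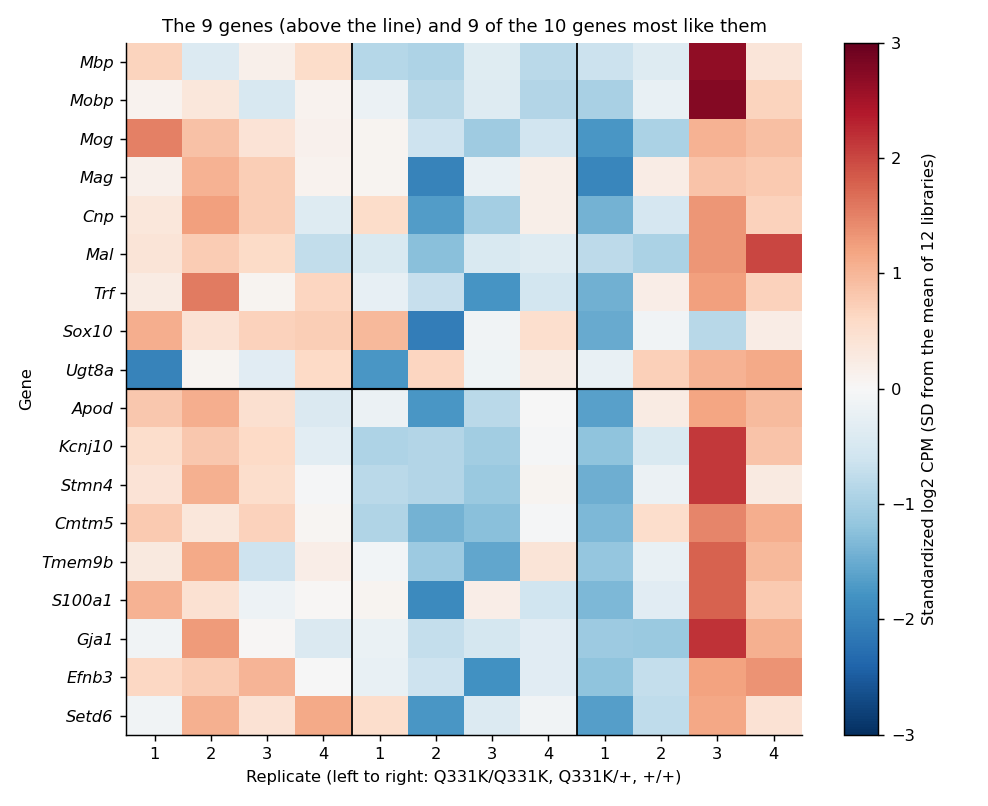
Standardized log2 CPM (colour, in SD from the mean of the 12 libraries) of the 9 genes above the line and of 9 of the 10 genes most like their mean below it, with homozygous, heterozygous and wild-type replicates from left to right. Wild-type replicate 3 is red for all genes but Sox10, wild-type replicate 1 is blue for all, and Ugt8a is deepest blue in replicate 1 of both mutant genotypes.

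Other genes of myelin and of the oligodendrocyte were read as lists. Of 16 other myelin membrane proteins, 9 were higher and 7 lower in homozygotes than in wild type (median 0.14 log2), 2 were higher and 14 lower in heterozygotes than in wild type (median -0.35), and 13 were higher and 3 lower in homozygotes than in heterozygotes (median 0.29). None passed the test in any comparison. Plekhb1, a pleckstrin-domain protein, had homozygous libraries (87.2 to 114 CPM) above heterozygous ones (72.1 to 81.6 CPM), as 1.03% of all genes did. It was named for its small p in these data. Its wild-type libraries ran from 74.2 to 213 CPM, highest in replicate 3. Tspan2, a tetraspanin of myelin, averaged 15.4 ± 3.34 CPM in homozygotes, 9.25 ± 3.33 CPM in heterozygotes and 10.4 ± 3.89 CPM in wild type (SD, n = 4 each).

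Of 14 enzymes of myelin lipids and oligodendrocyte metabolism, 9 were higher and 5 lower in homozygotes than in wild type, 3 were higher and 11 lower in heterozygotes than in wild type, and 13 were higher and 1 lower in homozygotes than in heterozygotes, with medians of 0.04, -0.11 and 0.19 log2. None passed the test. Cers2, a ceramide synthase of very long chain lipids (listed under its older symbol Lass2), averaged 39.3 ± 9.22 CPM in homozygotes, 33.6 ± 5.53 CPM in heterozygotes and 31.7 ± 2.49 CPM in wild type. Aspa, which splits N-acetylaspartate, averaged 8.27 ± 4.16 CPM, 5.21 ± 3.72 CPM and 8.77 ± 3.18 CPM in the same order. Gamt, an enzyme of creatine synthesis, was at 49.5 CPM in homozygous replicate 1 and 43.6 CPM in heterozygous replicate 1, against 8.83 to 21.1 CPM in the other 10 libraries.

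Of 10 transcription factors of the lineage other than Sox10, 5 were higher and 5 lower in homozygotes than in wild type, 4 were higher and 6 lower in heterozygotes than in wild type, and 6 were higher and 4 lower in homozygotes than in heterozygotes. None passed the test, and the medians were 0.01, -0.22 and 0.06 log2. Myrf (older symbol Gm98), the partner of Sox10 at myelin genes, averaged 7.27 ± 2.44 CPM in homozygotes, 4.56 ± 2.50 CPM in heterozygotes and 6.39 ± 2.65 CPM in wild type. Sox8, a close relative of Sox10, averaged 5.38 ± 1.81 CPM, 5.40 ± 6.06 CPM and 3.20 ± 0.676 CPM in the same order. Without heterozygous replicate 1, which was at 14.4 CPM, the heterozygous mean was 2.39 ± 0.909 CPM (n = 3), below that of wild type. Tcf7l2, a factor of newly formed oligodendrocytes, stayed at 1.21 CPM or less in every library.

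Of 9 iron genes, set beside Trf, 3 were higher and 6 lower in homozygotes than in wild type, 5 were higher and 4 lower in heterozygotes than in wild type, and 4 were higher and 5 lower in homozygotes than in heterozygotes, with medians within 0.07 log2 of 0 and none past the test. Slc40a1, the iron exporter ferroportin, averaged 7.23 ± 4.05 CPM in homozygotes, 2.41 ± 1.99 CPM in heterozygotes and 4.49 ± 2.23 CPM in wild type. Ftl1, ferritin light chain, averaged 342 ± 31.8 CPM, 324 ± 36.9 CPM and 292 ± 37.1 CPM in the same order. Ireb2, a sensor of iron that binds mRNA, averaged 18.9 ± 3.93 CPM, 25.4 ± 6.70 CPM and 19.0 ± 2.89 CPM.

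Mag is a ligand of receptors on neurons that restrain axon growth. Of 8 tested genes of that receptor system, 3 were higher and 5 lower in homozygotes than in wild type, 2 were higher and 6 lower in heterozygotes than in wild type, and 3 were higher and 5 lower in homozygotes than in heterozygotes, none past the test. Their medians were -0.31, -0.12 and -0.06 log2. Lrp1 is an endocytic receptor that binds myelin proteins. It had 78.5, 78.9, 70.1 and 90.3 CPM in the heterozygous libraries and 69.8, 57.8, 59.1 and 66.0 CPM in the wild-type libraries. These lay apart by a narrow gap, as 1.48% of all genes did upward, and Lrp1 was named for its small p in these data. The log2 difference was 0.33 (SE 0.12, unadjusted p = 0.0140, adjusted p = 0.999 by edgeR). Rtn4r, the Nogo receptor, averaged 5.93 ± 1.68 CPM in homozygotes, 7.45 ± 3.13 CPM in heterozygotes and 8.48 ± 3.18 CPM in wild type. Tnfrsf19, its co-receptor, averaged 13.2 ± 3.65 CPM, 9.91 ± 2.48 CPM and 10.8 ± 2.42 CPM in the same order.

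Markers of other cells were summed beside the members. Astrocyte markers, 10 of 10 detected and led by Aldoc, summed to 653 to 1088 CPM in homozygotes, 579 to 1092 CPM in heterozygotes and 1016 to 1586 CPM in wild type. Most of this sum was Aldoc, which averaged 893 CPM over the 12 libraries against 1034 CPM for the sum. The next highest marker, Slc1a2, averaged 44.3 CPM, so the sums mainly follow Aldoc. Wild-type replicate 3, the library highest in Mbp and Mobp, was also the highest in astrocyte markers at 1586 CPM, and the lowest sums were those of heterozygous and homozygous replicate 1. Between heterozygotes and wild type all 10 astrocyte markers had negative differences, with a median of -0.63 log2, and between homozygotes and wild type 9 of 10 did, with a median of -0.30. Between homozygotes and heterozygotes 8 of 10 had positive differences, with a median of 0.24, the same sign as the median of the members. None passed the test, and the part of astrocyte material in the member values was not tested.

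Oligodendrocyte precursor markers, 9 of 10 found in the table, summed to 8.17 to 23.2 CPM in homozygotes, 10.4 to 21.7 CPM in heterozygotes and 9.60 to 20.0 CPM in wild type, with Pdgfra, their defining receptor, at 0 to 2.77 CPM in any library. Schwann cells, which make the myelin of peripheral nerve and share Mbp, Mag, Mal and Sox10 with oligodendrocytes, were read by 7 markers, of which Egr2 and Pmp2 were at 0 in all 12 libraries. The sum of the 7 Schwann cell markers, 275 to 824 CPM in homozygotes, 186 to 803 CPM in heterozygotes and 125 to 353 CPM in wild type, was almost all Pmp22, a gene that motor neurons also express. Microglial markers summed to 56.4 to 93.8 CPM, 71.8 to 106 CPM and 53.1 to 91.6 CPM and endothelial markers to 15.1 to 37.2 CPM, 10.5 to 21.4 CPM and 17.7 to 33.5 CPM, in the same order of genotypes. The sums of both lists overlapped between the genotypes. Of 8 endothelial markers, all had negative differences between heterozygotes and wild type (median -0.77 log2) and 7 had positive ones between homozygotes and heterozygotes (median 0.63), the same signs as the medians of the members. All 9 tested motor neuron markers had positive differences from wild type in homozygotes (median 0.55) and in heterozygotes (median 0.44). All 5 inhibitory interneuron markers had negative ones, with medians of -0.89 in homozygotes and -0.73 in heterozygotes. None of these markers passed the test, and their part in the member values was not tested. The motor neuron and interneuron signs were not recomputed without homozygous and heterozygous replicate 1. In these libraries Nefh was at 6947 and 6833 CPM, against 3532 to 5564 CPM in the other 10. Slc6a5, an inhibitory interneuron marker, was at 0 and 1.35 CPM in them, against 123 to 293 CPM.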

How the data were processed

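The authors deposited 1 table of raw counts of reads per gene for 12 libraries. Per the labels' protocols, RNA was taken with the Arcturus PicoPure kit, copied with the SMART-seq v4 Ultra Low Input kit and made into Nextera XT libraries, which keep no strand and carry no molecular identifiers, so counted reads are not independent molecules. The submitters' processing notes name Trim Galore 0.4.3, HISAT2 2.0.5 and GRCm38. The counting program, its annotation and its treatment of overlapping genes are not given in the sources used here.

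Counts were tested with edgeR 4.0.16 (quasi-likelihood F test, TMM scaling, filterByExpr, 3 genotypes in 1 fit of 12 libraries, two-sided, Benjamini-Hochberg over 16338 genes, threshold 0.05) in R 4.3.3. CPM values use TMM scaling. Log2 CPM values use a prior count of 2. Exon lengths are from GENCODE annotation on GRCm38 and count each base in any annotated exon of a gene once. The procedure was tested on simulated counts. Alternatives were DESeq2 1.42.0, limma 3.58.1 (voom with quality weights), DESeq2 size factors, no filter, a filter of 1 CPM in 4 libraries, the 8 libraries compared alone, a replicate block, each library left out, and homozygous and heterozygous replicate 1 left out together.

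No 2 libraries of a genotype agreed within sampling noise (chi-square over degrees of freedom at least 61 in 18 pairs). Named pathway genes are the 3 with the smallest p over any genotype in each list. Genes of like pattern are the 10 with the highest r. Some genes that these rules pick are not reported here. The members and lists were chosen with earlier results of these data known. Of the listed genes 4 were found under an older symbol and 2 had no entry.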

Additional observations from a re-analysis of the deposited data

Results flagged for a closer look

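In 117 sets of 4 libraries (each gene or marker sum within a genotype), the gap of the highest or lowest library to its neighbour was divided by the range of the set, and 7 sets had a gap above the 95% critical value of Dixon's test. Chance gives about 1 in 20 such sets. Of 27 sets of the members, 1 stood out: Mal in heterozygous replicate 2, at 14.8 CPM, was below the 19.5 to 19.9 CPM of the other heterozygous libraries.

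Aspa was at 4.02 CPM in wild-type replicate 1, below 9.88 to 10.7 CPM in the other wild-type libraries. Sox8 was at 14.4 CPM in heterozygous replicate 1, above 1.47 to 3.29 CPM in the other heterozygous libraries. Summed Schwann cell markers, nearly all Pmp22, were 824 CPM in homozygous replicate 1, above 275 to 316 CPM in the other homozygous libraries, and 803 CPM (802.5) in heterozygous replicate 1, above 186 to 273 CPM in the other heterozygous libraries. Summed motor neuron markers, mostly Nefh, were 12080 CPM in homozygous replicate 1, above 6586 to 6847 CPM in the other homozygous libraries. Summed astrocyte markers, mostly Aldoc, were 579 CPM (578.5) in heterozygous replicate 1, below 1023 to 1092 CPM in the other heterozygous libraries.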

How the results depend on the processing

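The 27 differences of the members (9 genes, 3 comparisons) were recomputed under 20 alternatives, 540 values in all. No member was called in any of them, with a lowest adjusted p of 0.299 (Ugt8a, homozygotes minus wild type, with the replicate block, where the difference was -0.98). Direction was kept in 531 and turned in 9, all far from the threshold. With 1 library left out, homozygotes minus wild type ran from -0.011 to 0.27 for Cnp, -0.046 to 0.39 for Mag and -0.017 to 0.36 for Trf, with the lowest without wild-type replicate 1 and the highest without wild-type replicate 3. It ran from -0.45 to 0.24 for Mbp and -0.78 to 0.078 for Mobp, with the lowest without wild-type replicate 1 and the highest without wild-type replicate 3, and from -0.38 (without wild-type replicate 2) to 0.12 (without wild-type replicate 4) for Mal. Homozygotes minus heterozygotes ran from -0.45 (without homozygous replicate 4) to 0.18 (without homozygous replicate 1) for Ugt8a, and was 0.15 without heterozygous replicate 2. Sox10 was -0.064 for heterozygotes minus wild type by limma-voom. The cause was not tested.

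DESeq2 called 13 genes for homozygotes minus wild type against 1 by edgeR, 9 against 0 for heterozygotes minus wild type, 3 against 0 for homozygotes minus heterozygotes and 5 against 0 over any genotype. The 1 gene became 0 with no filter, with only the 8 libraries compared and without homozygous and heterozygous replicate 1 together, and was 0 to 0 with any 1 library left out. The test over any genotype was not run on 8 libraries.

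Replicate numbers were not taken as pairs: deviations of same-numbered libraries correlated at -0.05 to 0.45, above 0.1 in 3 of 12 pairs, all of number 1. With the replicate block the medians of the members were 0.14, -0.49 and 0.52 in the order homozygotes minus wild type, heterozygotes minus wild type and homozygotes minus heterozygotes, and 1, 0 and 0 genes were called. Genes at an unadjusted p under 0.05 were then 1431 against 787 and 1157 against 670 for the comparisons with wild type.

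With 4 libraries a genotype the intervals are wide: that of Sox10 for homozygotes over wild type runs from 0.981-fold to 4.03-fold. The absence of a call does not show equal levels.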
